A study of Mus musculus with 4 samples.

Results

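The expression of 7 genes of the Hedgehog pathway (Ptch1, Hhip, Smo, Sufu, Gli1, Gli2 and Gli3), out of 24346 gene symbols measured by RNA-seq, was examined in ZBP1-depleted mBMSCs. mBMSCs are mesenchymal stem/progenitor cells grown from the bone marrow of mice at 3 months of age, of strain C57BL/6 by the sample labels and C57BL/6J by the study's methods. The genes were picked by symbol, as parts of the core pathway, by a rule that uses no measured value, though earlier results of these data were known when the list was made. All cells were transfected with siRNA, either a scrambled control (siScr) or siRNA targeting ZBP1 (siZBP1), and RNA was collected 72 h later from 2 samples per group. No Hedgehog ligand or pathway drug is named for any sample, and the sources do not say which of the study's siRNAs against ZBP1 was used for sequencing.

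Hedgehog signaling begins when a secreted ligand (Sonic, Indian or Desert hedgehog) binds the receptor PTCH1 on the cell surface. Without ligand, PTCH1 keeps the membrane protein SMO out of the primary cilium, SUFU holds the GLI transcription factors, and GLI3 is cut into a repressor. With ligand, SMO enters the cilium and the GLI proteins become activators. Ptch1, Hhip and Gli1 are then transcribed themselves, so that their mRNAs are widely used as readouts of the pathway, and PTCH1 and HHIP bind ligand and dampen the signal. In bone, Indian hedgehog from growth plate chondrocytes directs the first steps of osteoblast differentiation.

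The 7 genes lie on 6 chromosomes of the mouse genome (GRCm38, gene models of GENCODE M21). Ptch1 is at chr13:63508328-63573598 (minus strand) and Gli3 on the same chromosome at chr13:15463235-15730026 (plus strand). Smo is at chr6:29735503-29761365 (plus strand), Sufu at chr19:46396896-46488804 (plus strand) and Hhip at chr8:79965851-80058006 (minus strand). Gli1 is at chr10:127329882-127341974 (minus strand) and Gli2 at chr1:118834132-119053619 (minus strand).

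Values are FPKM, a count of sequenced fragments scaled to the length of the transcript and the size of the library, as the authors deposited them. The targeted gene Zbp1 was at 86.0 and 62.0 FPKM in siScr replicates 1 and 2 and at 11.5 and 11.6 FPKM in siZBP1 replicates 1 and 2 (limma difference -2.56 on log2(FPKM + 1), adjusted p = 0.00322), as the labels say. All 10 mesenchymal markers were over the limit of 1 FPKM used for testing, and so were all 8 macrophage markers, of which Lyz2 reached 2814 to 5871 FPKM. Depth is not given with the values. The spacing of the smallest values, read from genes for which only 1 transcript is annotated, puts it very roughly at 14 and 21 megafragments in siScr replicates 1 and 2 and at 10 and 18 in siZBP1 replicates 1 and 2.

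Of the 7 genes, 4 were tested. Of these 4, Ptch1 alone was lower in siZBP1 cells by limma at an adjusted p under 0.05, against a background of 14.8% of the 11959 genes tested. None was higher (0 of 4 by limma, also 0 at an unadjusted p under 0.05), against a background of 13.5%. In either direction, 28.3% of the tested genes passed. Smo, Gli3 and Sufu were tested and did not pass the threshold. Hhip, Gli1 and Gli2 had a mean under 1 FPKM and were not tested. In each of the 4 tested genes the difference had a negative sign, with a median of -0.28 on the log2 scale against 0.0045 over all tested genes. The siZBP1 values lay below the siScr values without overlap in 5 of the 7 genes (Ptch1, Smo, Gli3, Gli2 and Hhip), which was the case for 29.3% of all genes detected, and above them in 0 of the 7 (29.0% of all genes detected). Hhip and Gli3 barely separated. The lowest siScr and highest siZBP1 values were 0.0135 and 0.0126 FPKM for Hhip and 3.68 and 3.57 FPKM for Gli3.

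**Figure D1:**
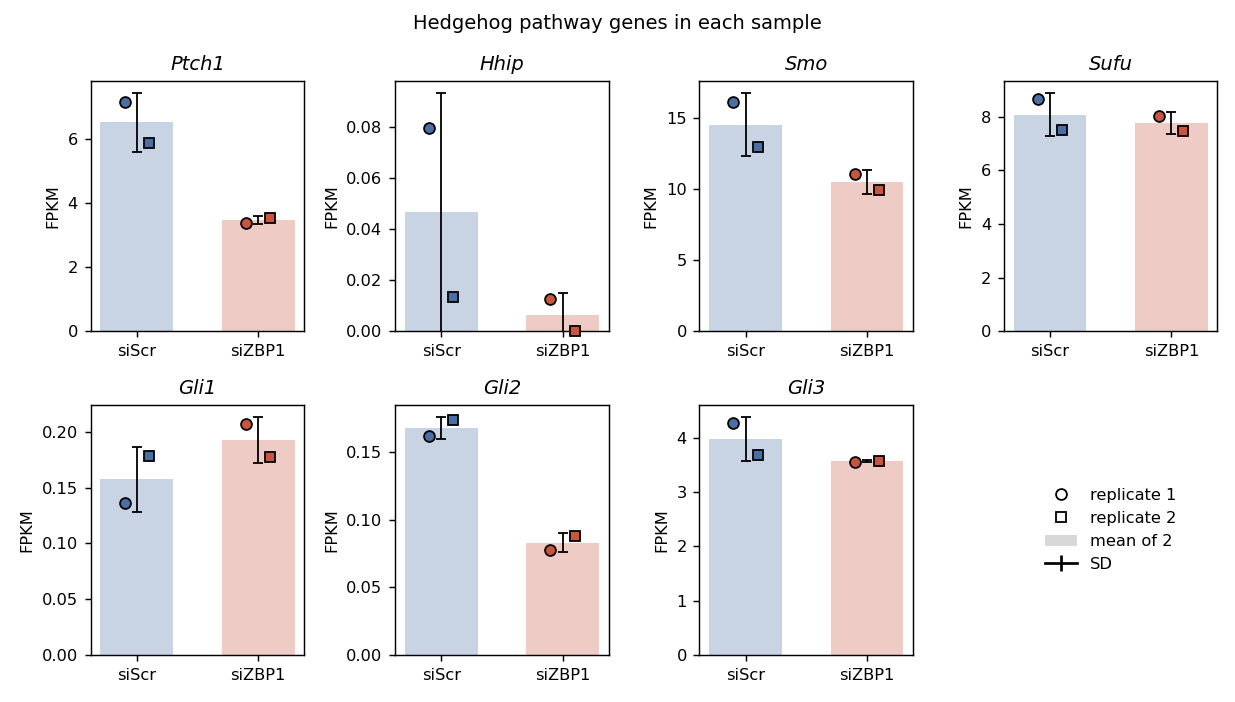
Expression in FPKM (y axes, starting at 0, each gene on its own scale) of the 7 Hedgehog pathway genes in siScr and siZBP1 cells. Circles and squares are replicates 1 and 2, bars their mean and error bars the SD (n = 2 per group, lower ends stop at 0). Ptch1 sat at 5.89 and 7.18 FPKM in siScr cells and at 3.38 and 3.56 FPKM in siZBP1 cells, whereas the values of Sufu and of Gli1 overlapped between the groups.

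Ptch1 encodes the receptor that binds Hedgehog ligand and holds SMO inactive. Its expression was 7.18 and 5.89 FPKM in siScr replicates 1 and 2 and 3.38 and 3.56 FPKM in siZBP1 replicates 1 and 2. Both siZBP1 samples were thus below both siScr samples, and the gap between the groups was wider than the gap between the replicates of either group. The mean fell from 6.54 ± 0.916 to 3.47 ± 0.126 FPKM (SD, n = 2 each), a ratio of 0.530. The limma difference on log2(FPKM + 1) was -0.75 (standard error 0.11, 95% interval -1.05 to -0.45, adjusted p = 0.0144), and 4.96% of the tested genes had a more negative difference. Without siZBP1 replicate 1 the limma adjusted p was 0.115, and without siZBP1 replicate 2 it was 0.0923, while it was 0.0457 and 0.0210 without siScr replicates 1 and 2. The difference stayed between -0.87 and -0.63 in these fits.

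Hhip encodes a membrane protein that binds and sequesters Hedgehog ligands. It was listed at 0.0795 and 0.0135 FPKM in siScr replicates 1 and 2, at 0.0126 FPKM in siZBP1 replicate 1 and at 0 in siZBP1 replicate 2. By the rough depth above and its longest coding transcript, these values stand for about 10, 3, 1 and 0 fragments. The groups did not overlap, but siScr replicate 2 and siZBP1 replicate 1 lay side by side, so that a difference was not detectable at this depth. An exact permutation test of 2 samples against 2 cannot give a two-sided p below 0.333, which is what it gave here.

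Smo encodes the membrane protein that carries the signal into the cell once PTCH1 has bound ligand. It had the highest level of the 7 genes, with 16.1 and 12.9 FPKM in siScr replicates 1 and 2 and 11.1 and 9.88 FPKM in siZBP1 replicates 1 and 2. The siZBP1 samples were lower without overlap, but the siScr replicates stood apart from each other by 0.29 on the log2 scale. The limma difference was -0.43 (standard error 0.12, 95% interval -0.75 to -0.11, adjusted p = 0.0614), which did not pass the threshold after adjustment. Without siScr replicate 2 it was -0.58 with a limma adjusted p of 0.0373, and without siScr replicate 1 it was -0.28 with a limma adjusted p of 0.146.

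Sufu encodes the cytoplasmic inhibitor of the GLI proteins. Its values were 8.64 and 7.495 FPKM in siScr replicates 1 and 2 and 8.03 and 7.47 FPKM in siZBP1 replicates 1 and 2, so that the groups overlapped. The limma difference was -0.05, with a 95% interval from -0.29 to 0.20 (adjusted p = 0.736). The sign turned to positive, at 0.04, without siScr replicate 1 (limma adjusted p = 0.751).

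Among the GLI transcription factors, Gli3, which serves mainly as the source of the pathway's repressor, was the main form in these cultures. It was at 4.26 and 3.68 FPKM in siScr replicates 1 and 2 and at 3.55 and 3.57 FPKM in siZBP1 replicates 1 and 2. The siZBP1 samples were below the siScr samples by less than the gap between the siScr replicates. The limma difference was -0.12, with a 95% interval from -0.39 to 0.14 (adjusted p = 0.416).

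Gli2, the main activator downstream of SMO, was at 0.162 and 0.174 FPKM in siScr replicates 1 and 2 and at 0.0779 and 0.0878 FPKM in siZBP1 replicates 1 and 2. The groups did not overlap, and the ratio of the means was 0.494. These levels stand for roughly 15 and 25 fragments in siScr cells and 5 and 11 in siZBP1 cells. With every detected gene in the limma fit the difference of Gli2 was -0.11 on log2(FPKM + 1), a scale that shrinks changes of low genes (adjusted p = 0.146), and with a pseudocount of 0.1 it was -0.55 (limma adjusted p = 0.207).

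Gli1, the amplifier of the response and its most used readout, was at 0.137 and 0.178 FPKM in siScr replicates 1 and 2 and at 0.207 and 0.178 FPKM in siZBP1 replicates 1 and 2. The groups overlapped, and the means were 0.157 ± 0.0294 and 0.193 ± 0.0210 FPKM (SD, n = 2 each), with an exact two-sided permutation p of 0.667. The highest value stands for roughly 9 fragments in the shallowest library, so that small changes were not detectable at this depth. On the opposite strand, 62 bases of the longest coding transcript of Gli1 overlap exons of Arhgap9, a gene of blood cells, which was at 23.3 and 22.8 FPKM in siScr cells and 29.3 and 26.9 FPKM in siZBP1 cells. The same transcript overlaps the antisense gene Gm47200 over 265 bases, whose level was not analysed here. The sources do not say whether reads were counted by strand, and the part of either gene's reads in the values of Gli1 was not tested.

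Since FPKM is scaled to transcript length, the levels can be placed in order. In siScr cells the order from high to low was Smo, Sufu, Ptch1, Gli3, Gli2, Gli1 and Hhip, and of the neighbours in it Gli2 and Gli1 alone had overlapping values. In siZBP1 cells it was Smo, Sufu, Gli3, Ptch1, Gli1, Gli2 and Hhip, and Gli3 and Ptch1 alone overlapped. Ptch1 thus stood above Gli3 in both siScr samples and at the level of Gli3 in siZBP1 cells, and Gli2 went from the level of Gli1 to below it. In siZBP1 cells the values of Gli2 stand for roughly 5 and 11 fragments and those of Gli1 for 9 and 13. Neither gene reached the limit for testing, so that their order is uncertain. The sum of the 7 genes was 30.3 to 36.5 FPKM in siScr cells and 24.8 to 26.3 FPKM in siZBP1 cells.

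Within a sample, a ratio between a pair of genes does not depend on how the library was scaled. These ratios were taken up after the values had been seen. Ptch1 was at 1.69 and 1.60 times Gli3 in siScr cells and at 0.952 and 0.995 times Gli3 in siZBP1 cells. Relative to Smo it was at 0.447 and 0.456 in siScr cells and at 0.305 and 0.360 in siZBP1 cells, and relative to Sufu at 0.831 and 0.786 and at 0.420 and 0.476. For these 3 partners the siZBP1 ratios lay below the siScr ratios without overlap. Ptch1 was the one member called lower, so that a lower ratio to a partner that changed little restates that call. No share of all genes with ratios separated in this way was computed. Relative to the co-receptor gene Boc, Ptch1 was at 2.09 and 1.85 in siScr cells and at 2.01 and 1.76 in siZBP1 cells, which overlapped. Relative to the other co-receptor genes it was lower without overlap, at 4.08 and 3.69 and then 1.76 and 1.81 for Cdon, and at 0.704 and 0.817 and then 0.441 and 0.487 for Gas1.

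The marrow cultures are mixtures, and fewer cells of a type and less RNA per cell cannot be told apart in them. Of the 10 mesenchymal markers, 6 were lower and 1 was higher in siZBP1 cells by limma at an adjusted p under 0.05. Over all tested genes, 14.8% were lower and 13.5% higher. The mesenchymal markers had a summed level of 2971 to 3611 FPKM in siScr cells and 1464 to 1524 FPKM in siZBP1 cells. Most of that sum was Col1a1, the main collagen of bone, and the other 9 summed to 450.4 to 545 FPKM in siScr cells and 332 to 336 FPKM in siZBP1 cells. Of the 8 macrophage markers, 5 were higher and none was lower (also 0 at an unadjusted p under 0.05), with sums of 4660 to 5547 and 7629 to 8163 FPKM. Without Lyz2, the lysozyme gene of myeloid cells, which made up most of these sums, the other 7 summed to 1846 to 1899.8 FPKM in siScr cells and 2227 to 2292 FPKM in siZBP1 cells. The ratio of Ptch1 to a mesenchymal marker was lower in siZBP1 cells without overlap for 5 of the 10 markers, higher for 3 and overlapping for 2. For Prrx1, a transcription factor of limb and bone mesenchyme, it was 0.139 and 0.135 in siScr cells and 0.145 and 0.154 in siZBP1 cells, and for Pdgfrb, a receptor of stromal cells and pericytes, 0.155 and 0.139 and then 0.102 and 0.111. Each ratio also moves with its marker, such as Nt5e (limma difference 2.16) and Cxcl12 (-2.81). The share of all genes with such separated ratios was not computed. The part of the cell mixture in the lower Ptch1 was not tested.

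**Figure D2:**
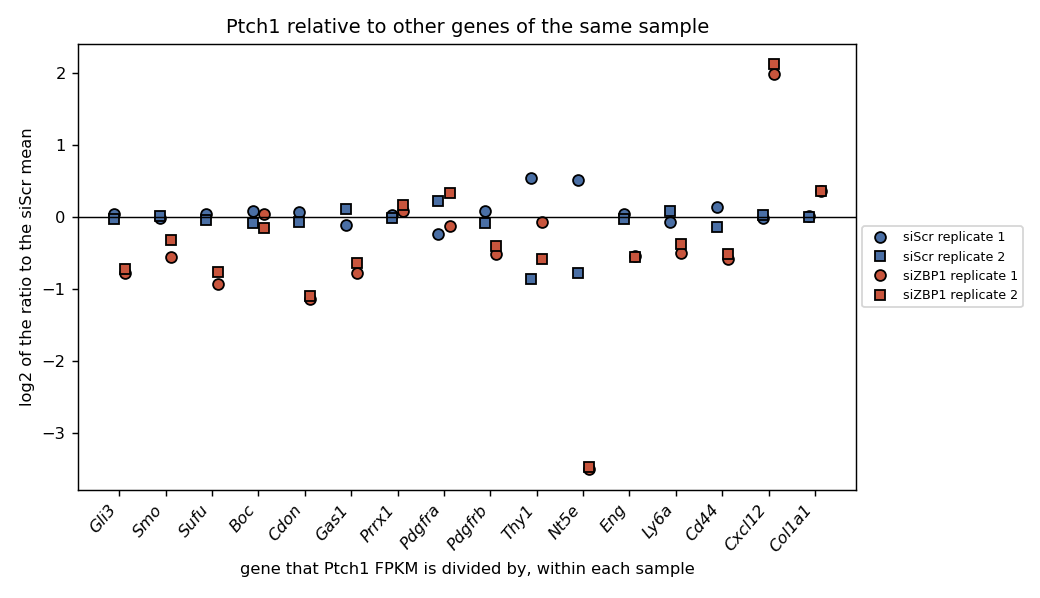
Ratio of Ptch1 FPKM to the FPKM of another gene in the same sample, as the log2 of that ratio over its siScr mean (y axis), for the 3 tested members, 3 co-receptors and 10 mesenchymal markers (x axis), with blue siScr and red siZBP1 points (circles and squares are replicates 1 and 2). The siZBP1 points lie below the siScr points for Gli3, Smo, Sufu, Cdon, Gas1, Pdgfrb, Nt5e, Eng, Ly6a and Cd44. They overlap for Boc, Pdgfra and Thy1, and lie above for Prrx1, Cxcl12 and Col1a1.

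Of the osteoblast markers, 5 of 5 were lower by limma, against 14.8% of all tested genes. Their sums were 332 to 410 FPKM in siScr cells and 59.7 to 64.0 FPKM in siZBP1 cells. Like Ptch1, Smo, Gli3 and Sufu, 4 of the 5 osteoblast markers (Runx2, Sp7, Alpl and Bglap) were higher in siScr replicate 1 than in siScr replicate 2, by 0.26, 0.57, 0.63 and 0.21 on the log2 scale, while 55.0% of all tested genes were higher in replicate 1. Ibsp went the other way, with a difference of -0.26. The pattern was not particular to osteoblast markers. All mesenchymal markers but Thy1 and Nt5e were also higher in siScr replicate 1, for example Prrx1 at 51.6 against 43.5 FPKM. Of the chondrocyte markers, Acan was at or under 0.0319 FPKM in every sample, 1 of the 3 tested was lower and none higher (1 at an unadjusted p under 0.05). Of the adipocyte markers, 1 was lower and 1 higher of 4 tested, and Plin1 was listed at 0 in every sample. Of the endothelial markers, 1 of 4 reached the limit for testing and did not pass the threshold.

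The 3' UTR was examined for matches to the seed of the study's siRNAs against ZBP1, the 7 bases from position 2 to position 8 of the antisense strand, since short RNAs can lower transcripts that hold such a match. For siZBP1-1 the match is CAGCCAA, and it was found in the 3' UTR of 4 of the 7 genes (Ptch1, Gli2, Gli3 and Hhip) and of 11.98% of the 10804 tested genes with a 3' UTR of at least 50 bases. For siZBP1-2 the match is TCCGGGA, found in 0 of the 7 genes and in 2.32% of the tested genes. Longer 3' UTRs hold such a match more often, and those of the 4 genes were 1653 to 6480 bases long, against a median of 1189 bases over the tested genes. The sites are shown because the genes that hold them include Ptch1, Gli2 and Hhip, whose mean FPKM was over 1.5-fold lower in siZBP1 cells, as well as Gli3, whose mean was not. They are written 5′ to 3′ on the strand of the gene, from GRCm38, with the match in capitals.
Ptch1: agtcccatCAGCCAAggcaggaa
Gli2: atttggtcCAGCCAAatttatat
Gli3: gctatgacCAGCCAAtttcactt
Hhip: ctccttcaCAGCCAAcccaggct
The sites lie at chr13:63509138-63509160 (minus strand) for Ptch1, chr1:118834232-118834254 (minus strand) for Gli2, chr13:15728309-15728331 (plus strand) for Gli3 and chr8:79971234-79971256 (minus strand) for Hhip, each in the 3' UTR of the longest coding transcript. Smo and Sufu, with 3' UTRs of 1080 and 2860 bases, and Gli1, with 165 bases, held neither match. The part of such matches in the lower values was not tested, and a match in the letters is not a site shown to be bound. Gli2 and Hhip were under the limit for testing, so that their lower means rest on few fragments.

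By the ratio of mean FPKM, 3 of the 7 genes were over 1.5-fold lower in siZBP1 cells (Ptch1, Gli2 and Hhip), against a background of 13.8% of 16281 genes, and 0 were over 1.5-fold higher, against 10.7%. No test enters these counts. With 1 added to both means, which damps low genes, Ptch1 alone stayed over 1.5-fold lower.

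RefSeq promoter windows of GRCm38.p6, from 250 bases before to 50 bases after the start of a gene, were matched for 6 of the 7 genes (not Gli1). The GLI consensus GACCACCCA, searched on both strands with its reverse complement TGGGTGGTC, was in 0 of these 6 windows and in 83 of 32851 windows in all, or 0.253%. These letters were thus rare in such windows, and no match says only that they are not in this window.

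The remaining genes of the pathway were described from 7 lists by role, with 74 genes in all, of which 57 were tested. By limma, 15 of them were lower and 6 higher at an adjusted p under 0.05, with backgrounds of 14.8% and 13.5%, and their median difference was -0.0045 on the log2 scale against 0.0045 over all tested genes.

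**Figure D3:**
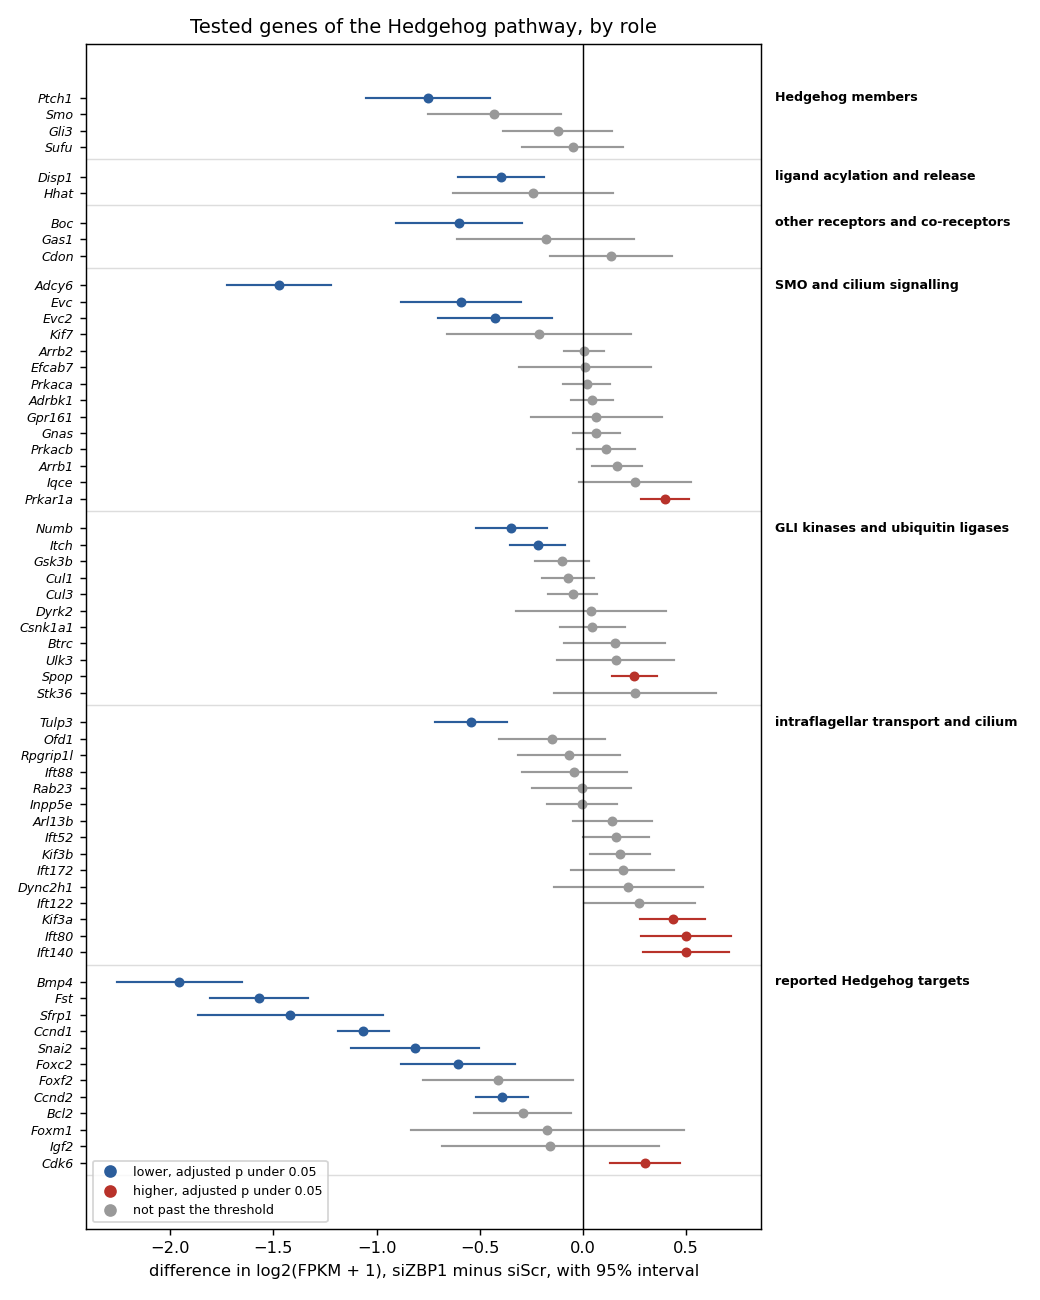
Limma difference in log2(FPKM + 1), siZBP1 minus siScr (x axis), with 95% intervals, for the 4 tested members and the 57 other tested genes of the Hedgehog pathway, grouped by role (y axis). Blue points were lower and red points higher at an adjusted p under 0.05, and grey points did not pass it. The lists by role were chosen with earlier results of these data known. Of the reported targets, 7 of the 12 tested lie on the lower side in blue and Cdk6 alone in red. Over all tested genes, 14.8% were lower and 13.5% higher.

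The ligands themselves were near or at the bottom of the range. Shh was listed at 0 in all 4 samples. Ihh was at 0.103 and 0.0944 FPKM in siScr cells and at 0.108 and 0.108 FPKM in siZBP1 cells, and Dhh was listed at 0 in one sample of each group and at 0.0197 and 0.0378 FPKM in the others. None of the 3 reached the limit for testing. Of the genes that acylate and release ligands, Disp1, which frees lipid-bearing Hedgehog from the producing cell, was lower, at 5.74 and 6.09 FPKM in siScr cells and 4.24 and 4.25 FPKM in siZBP1 cells (limma difference -0.40, adjusted p = 0.0264). Hhat, which attaches palmitate to the ligands, had a difference of -0.24 (limma adjusted p = 0.287), and the other 3 genes of this list were under the limit.

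Of the co-receptors that present ligand to PTCH1, Boc was lower, at 3.44 and 3.18 FPKM in siScr cells and 1.68 and 2.02 FPKM in siZBP1 cells (limma difference -0.60, standard error 0.12, adjusted p = 0.0247). Gas1 and Cdon, which share this role, gave -0.18 and 0.14 (limma adjusted p = 0.461 and 0.411), with 95% intervals from -0.61 to 0.25 and from -0.16 to 0.43. The calls of Disp1 and Boc were both lost in each fit that left out 1 sample.

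Of the 14 tested genes for SMO and signaling at the cilium, 3 were lower, 1 was higher and 10 did not pass the threshold. Evc and Evc2, which encode partners in a complex that relays the signal of active SMO at the base of the cilium, were lower together. Evc was at 3.72 and 3.21 FPKM in siScr cells and 2.01 and 1.91 FPKM in siZBP1 cells (limma difference -0.59, adjusted p = 0.0229), and Evc2 was at 6.57 and 5.50 FPKM and at 4.19 and 4.25 FPKM (limma difference -0.43, adjusted p = 0.0433). Adcy6, an adenylyl cyclase that makes the cAMP by which protein kinase A restrains the pathway, fell from 10.5 and 9.21 FPKM to 3.00 and 2.82 FPKM (limma difference -1.47, adjusted p = 0.00324). Prkar1a, the regulatory subunit that keeps protein kinase A inactive, rose from 141 and 148 FPKM to 189 and 192 FPKM (limma difference 0.40, adjusted p = 0.00764). Without siScr replicate 1 the calls of Adcy6 and Prkar1a held and those of Evc and Evc2 were lost, and all 4 were lost without either siZBP1 replicate.

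Of the 11 genes for the kinases and ubiquitin ligases that act on GLI proteins, 2 were lower, 1 was higher and 8 did not pass. Numb and Itch, which together target GLI1 for ubiquitination, were lower, with limma differences of -0.35 and -0.22 (adjusted p = 0.0232 and 0.0373). Spop, an adaptor that sends GLI2 and GLI3 to degradation, was higher by 0.25 (limma adjusted p = 0.0175), at 63.3 and 65.3 FPKM in siScr cells and 75.7 and 77.6 FPKM in siZBP1 cells. Of these calls that of Spop held without siScr replicate 2, and all others were lost in each fit without 1 sample.

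Of the 15 genes for intraflagellar transport and the cilium, 1 was lower and 3 were higher. Ift80 and Ift140, subunits of the transport particles, rose from 4.73 and 4.81 to 7.52 and 6.81 FPKM and from 3.74 and 3.94 to 5.91 and 5.78 FPKM (limma differences 0.50 and 0.50, adjusted p = 0.0175 and 0.0160). Kif3a, a motor subunit that moves these particles outward, rose from 13.4 and 14.3 to 19.4 and 18.6 FPKM (limma difference 0.44, adjusted p = 0.0114). Tulp3, which brings receptors such as GPR161 into the cilium and restrains the pathway, fell from 9.98 and 10.1 to 6.43 and 6.72 FPKM (limma difference -0.54, adjusted p = 0.00918). All 4 calls were lost without either siZBP1 replicate, and those of Ift80 and Ift140 also without siScr replicate 1.

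Of 20 genes that have been reported as Hedgehog targets in other tissues, 12 were tested, 7 were lower and 1 was higher. The backgrounds over all tested genes were 14.8% and 13.5%. The median difference of these targets was -0.51 on the log2 scale, against 0.0045 over all tested genes. The list was made with earlier results of these data known. Its counts and median are thus a description and no test of the pathway. Bmp4, a ligand that promotes osteoblast formation, had the largest difference of this list, falling from 5.59 and 6.52 to 0.797 and 0.832 FPKM (limma difference -1.96, adjusted p = 0.00284). Fst, an extracellular inhibitor of activins, fell from 17.3 and 14.97 to 4.83 and 4.71 FPKM (limma difference -1.57, adjusted p = 0.00278). Sfrp1 and Ccnd1, a secreted Wnt antagonist and cyclin D1, had limma differences of -1.42 and -1.07 (adjusted p = 0.00910 and 0.00221). Snai2, Foxc2 and Ccnd2 were the other genes lower and Cdk6 the one higher. Several of these genes, such as Ccnd1, are also targets of Wnt and other pathways, so that the list is not specific to Hedgehog. The call of Ccnd1 held with each sample left out, that of Bmp4 was lost without siZBP1 replicate 1, and those of Fst and Sfrp1 were lost without either siZBP1 replicate.

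Of the 11867 tested genes outside the lists, those whose pattern over the 4 samples was nearest to that of Ptch1, by the Euclidean distance of log2(FPKM + 1) from its mean, were Il18bp, 4930426L09Rik and Sdk2. Their distances were 0.0305, 0.0425 and 0.0443, against a median of 0.799 over these genes. Il18bp, a secreted inhibitor of interleukin-18, was at 14.4 and 12.1 FPKM in siScr cells and at 7.42 and 7.84 FPKM in siZBP1 cells. Sdk2, a cell adhesion molecule, was at 1.997 and 1.44 FPKM and at 0.568 and 0.671 FPKM.

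**Figure D4:**
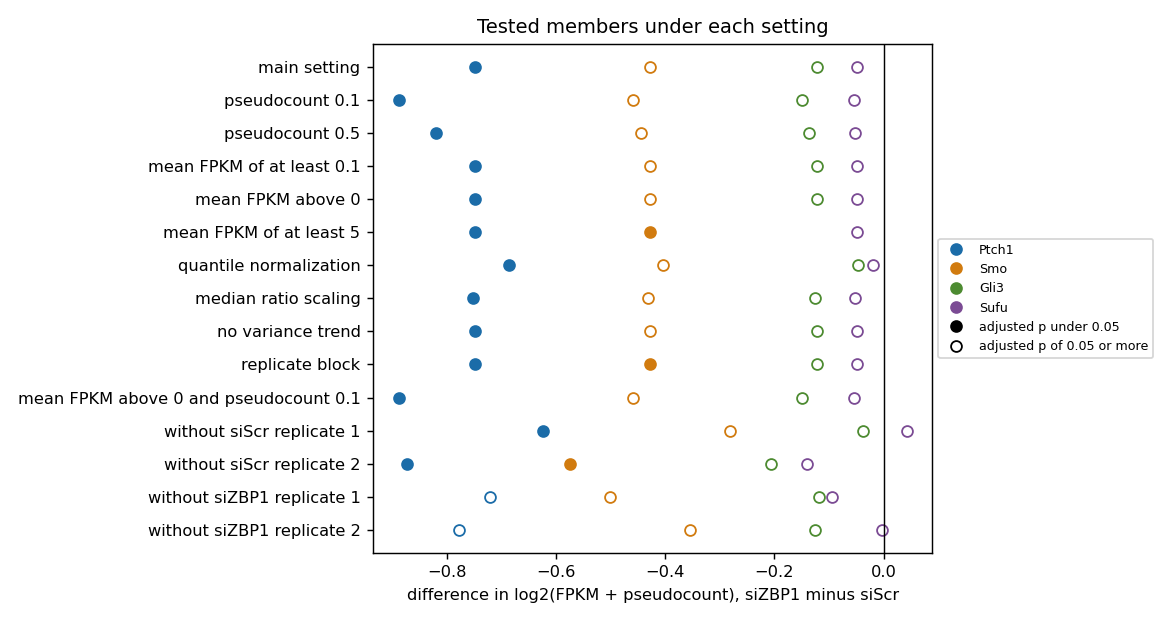
Difference between siZBP1 and siScr cells on the log2 scale (x axis) for Ptch1, Smo, Gli3 and Sufu under each setting of the analysis (y axis), with filled points at an adjusted p under 0.05 and open points above it. Ptch1 stayed between -0.89 and -0.63 and was open only in the fits without a siZBP1 replicate. Smo was filled in 3 settings, and Sufu crossed 0 once.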

How the data were processed

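RNA-seq of 4 samples of mBMSCs was used, 2 per group, with groups from the sample labels. The deposited values are FPKM per gene symbol, with the authors' mean of each group beside them, which was not used. TruSeq libraries were mapped with TopHat to mm10. Extraction of FPKM is credited to HTSeq in the methods and to Cufflinks in the processing notes, and the annotation, strand setting and filters are not given in the sources used here. FPKM depends on that annotation, most for genes with several transcripts.

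The two-sided moderated test of limma 3.58.1 under R 4.3.3, with its prior variance following the mean level, was applied to log2(FPKM + 1) of the 11959 genes with a mean of at least 1 FPKM. P-values were adjusted by Benjamini and Hochberg over these genes, with a threshold of 0.05. The fit was also run on simulated data, as a check of the procedure and not of the calls reported here. Nothing says that the replicates came from separate animals, so that p-values measure only the spread between these samples. Of the other lists, every ligand and up to 4 called genes with the largest difference were named with values. Some other tested genes, markers and Arhgap9 were named after their values had been seen. The members and lists were chosen with earlier results of these data known. Gene models are those of GENCODE M21 on GRCm38. Python 3.11.15 with pandas 2.3.3, numpy 2.4.6 and matplotlib 3.10.9 was used. For each count of limma calls, 13 alternatives were planned and 1, which joins a lower filter to a pseudocount of 0.1, was added after the data were seen. Counts over 1.5-fold had 1 added to both means, or 1 sample left out. The marker sums without their highest gene were also added then.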

Additional observations from a re-analysis of the deposited data

How the results depend on the processing

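Depth limits Hhip, Gli1 and Gli2 most, and a fit without 1 sample takes the spread of that group's remaining sample from the other group. With a sample left out, the number of the 7 genes lower by limma ranged from 0 to 2, the other pathway genes lower from 1 to 12 and higher from 0 to 5, and all genes lower from 48 to 1467 and higher from 22 to 1248. At a mean of at least 5 FPKM, 2 of the 7 genes were lower (Ptch1 and Smo, the latter with a limma adjusted p of 0.0492) and 8 other pathway genes, among fewer genes tested. Same-numbered samples showed little shared deviation, with a correlation of deviations of -0.063 over 11959 genes. Whether they share a culture or an animal is not given in the sources used here. A replicate block gave 2 of the 7 genes lower, with Smo at a limma adjusted p of 0.0208, and 1654 lower and 1465 higher genes in all. With 1 added to both means, 1 gene in place of 3 was over 1.5-fold lower. Ptch1 and Gli2 stayed over 1.5-fold lower with each sample left out, and Smo joined them without siScr replicate 2. Without siZBP1 replicate 1 no ratio was taken for Hhip, whose remaining siZBP1 value was 0. The difference of Sufu was 0.0425 without siScr replicate 1 and ranged from -0.1401 to 0.0425 with a sample left out. Over the settings with all samples, 18 genes past the threshold (Ptch1 and those of the other lists named with values) stayed past it in 164 cases and lost it in 11, all of Evc2, Disp1 and Itch. Snai2, Foxc2, Ccnd2 and Cdk6 are not among these 18. The limma adjusted p of Ptch1 ranged from 0.0101 to 0.115 and that of Smo from 0.0208 to 0.247. The median of all genes was 0.04 under quantile normalization and nearer to 0 under the others.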
